A study of Mus musculus with 9 samples.

Results

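Genes with their highest or their lowest level in Mac1+ cells were sought among 3 populations of the granulocyte lineage in the marrow of unmodified C57BL/6 mice. Every population was measured on 3 Affymetrix arrays, 9 in all, from mice of either sex aged 4 to 10 weeks. The Mac1+ cells carried c-kit (encoded by Kit, the stem cell factor receptor), Gr1 (a surface antigen of granulocytes and some monocytes) and Mac1 (an integrin whose alpha chain is encoded by Itgam). The Mac1lo cells carried c-kit and Gr1 with little or no Mac1, whereas neutrophils had Gr1 and Mac1 but lacked c-kit. Both c-kit+ populations were sorted free of B220, TER119, CD3, CD4, CD8 and IL7Rα. No group carried an engineered allele or had a treatment named in the labels. The labels do not state whether the arrays of a population came from separate animals or whether animals were pooled, so the spread behind each p-value is that among these samples and could be technical.

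A gene was a peak gene where all 3 Mac1+ arrays lay above every Mac1lo and every neutrophil array, and a dip gene where all 3 lay below them. Of 18193 named genes, 1230 (6.76%) were peak genes and 725 (3.99%) were dip genes. Levels are log2(intensity + 16), so a difference of 1 is a factor of 2 for bright genes and understates the change of dim ones. Mac1+ cells were called intermediate only because they shared c-kit with one flanking population and Mac1 with the other. The arrays hold no time course.

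Neutrophils develop in the marrow through stages that first divide and then stop dividing, while the proteins of their granules are made in succession, primary (azurophil) granules before secondary (specific) granules. Monocytes arise from related c-kit+ progenitors. The transcription factors Gfi1 and Irf8 are known to favour the granulocyte and the monocyte branch, respectively.

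The sort markers went with the labels. Kit was at 11.56, 11.66 and 11.66 in Mac1lo cells, 11.71, 11.64 and 11.77 in Mac1+ cells and 6.79, 8.28 and 8.44 in neutrophils, and was neither a peak nor a dip gene. Itgam stood at 6.45 ± 0.04, 9.69 ± 0.20 and 11.55 ± 0.48 (SD, n = 3) in the same order, without overlap. By their cytology the labels describe both c-kit+ populations as myeloblasts or undifferentiated cells. Textbook accounts place secondary granule proteins after the myeloblast stage, yet all 16 measured secondary granule genes exceeded an intensity of 100 on every Mac1+ array, against 11 of 16 on each Mac1lo array. Neutrophil array 1 stood apart from the other 2 neutrophil arrays. Its median intensity was 61.8 (39.1 to 45.4 on the other 8 arrays), Mpo read 12.80 on it against 10.76 and 9.63 on the others, and 40 of 72 mitosis genes exceeded an intensity of 100 on it, against 60 and 51.

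In the fit of all 9 arrays, 285 genes (1.57%) were higher in Mac1+ cells than in each flanking population, with an adjusted p under 0.05 in both comparisons, and 253 (1.39%) were lower than in each. These are referred to as called. All 285 genes of the first group were peak genes, and 249 of the second were dip genes. The 2 comparisons share the Mac1+ arrays, and the choice of peak and dip genes uses the values that are tested. Against the equally weighted mean of the flanks, 3695 genes (20.3%) were higher in Mac1+ cells and 1718 (9.44%) were lower, which includes genes that differed from only 1 flank. Of these calls 68.3% were higher ones, and 58.3% after quantile normalization. Among the 1230 peak genes 1019 were called in that contrast, 330 against Mac1lo cells (6.31% of all genes were called higher) and 1064 against neutrophils (28.4%). Most peak genes therefore stood closer to Mac1lo cells. The median difference was 0.48 from Mac1lo cells and 1.40 from neutrophils, and in 1051 of them the neutrophil mean was the lowest. Among the 725 dip genes 562 were called in the contrast, 266 as lower than in Mac1lo cells (5.51% of all genes) and 629 as lower than in neutrophils (19.7%). Their medians were -0.55 and -1.34, and in 606 of 725 the neutrophil mean was the highest. Over all genes the medians were -0.01 and -0.05.

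**Figure D1:**
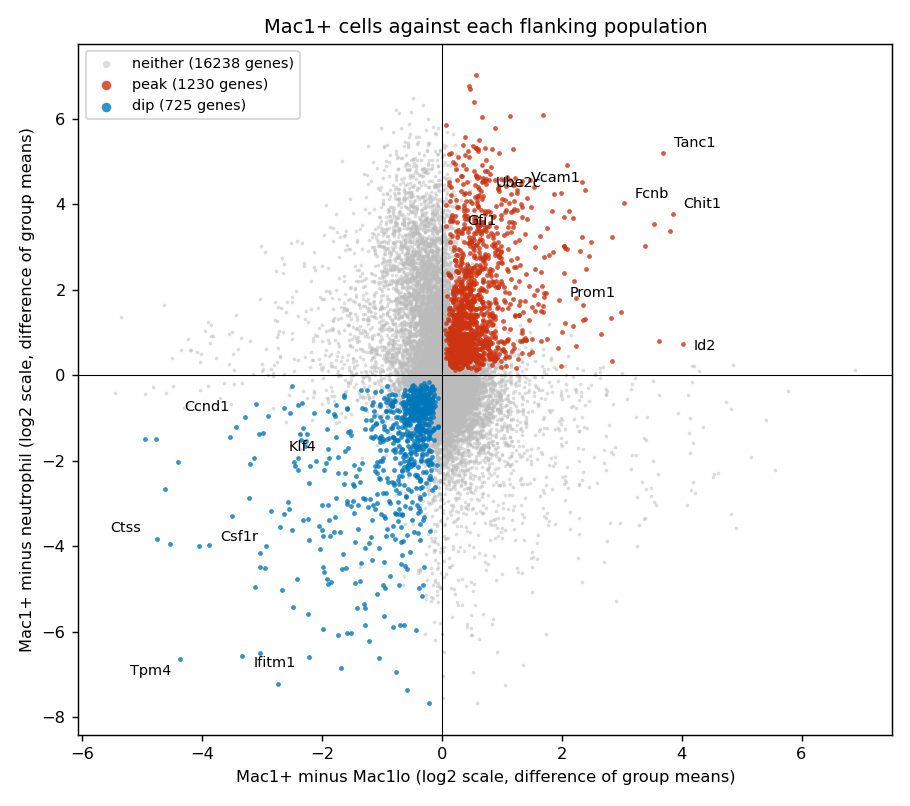
Difference of group means between Mac1+ and Mac1lo cells (x axis, log2 scale) and between Mac1+ cells and neutrophils (y axis, log2 scale) for each of 18193 genes. Red points are the 1230 peak genes and blue points the 725 dip genes. Peak genes lie at the upper right, mostly close to the vertical line, and genes such as Chit1 and Tanc1 lie far from both lines.

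The nearer of the 2 differences exceeded 1 for 139 peak genes and 157 dip genes, and exceeded 2 for 24 and 41. At the edge of the rule the gaps were minute. Ap2m1, which encodes an adaptor subunit of clathrin-coated vesicles, was just inside as a peak gene with a gap of 0.000355 between its lowest Mac1+ array and the highest other array, and the general transcription factor gene Gtf2b was just outside at -0.000137. Among dip genes the chemokine receptor gene Cx3cr1 was inside by 0.00111 and Prkar2b, which encodes a regulatory subunit of protein kinase A, was outside, with a gap of -0.000262. Without neutrophil array 1 the numbers were 1430 peak and 869 dip genes, of which 1228 and 713 were also found with it. For a given probe set, leaving out an array can only loosen the rule. The rise in peak and dip genes and their overlap were thus largely set by the rule. The called genes, which rest on the tests, numbered 713 and 466 without that array, with 282 and 246 shared. Without any one c-kit+ array, the called peak genes numbered 144 to 174.

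Other probe sets for the same gene gave a second reading of its RNA that the choice had not used. Of 493 peak genes whose next brightest probe set was above the level of the median gene, 260 (52.7%) met the same rule with it and 411 (83.4%) had both differences in the same direction. Over all 3769 genes with such a probe set the shares were 9.76% and 26.0%. Of 158 dip genes, 87 (55.1%) met the rule again and 129 (81.6%) kept both signs, beside 3.93% and 12.2% over all genes. Among the called genes, 75 of 100 peak genes and 55 of 71 dip genes met the rule again. With second probe sets of any level, dim ones included, the shares were lower, 42.3% of 749 peak genes (5.21% of all genes) and 29.2% of 391 dip genes (3.46%), and 71.2% and 62.9% had both differences in the same direction. Of called genes 58.9% and 50.3% met the rule again at any level.

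The peak genes farthest from both flanks came from varied families. Chit1, which encodes the chitinase chitotriosidase, read 8.19, 8.56 and 8.56 in Mac1+ cells, 4.96, 4.52 and 4.26 in Mac1lo cells and 4.86, 4.69 and 4.46 in neutrophils. It was near the bottom of the scale in both flanks and well above it on all 3 Mac1+ arrays. The difference was 3.85 ± 0.21 (SE) from Mac1lo cells (adjusted p = 8.26e-06) and 3.77 ± 0.21 from neutrophils (adjusted p = 8.25e-07). Tanc1, a scaffold protein gene best known from synapses, read 10.04, 10.02 and 10.00 in Mac1+ cells against 6.11 to 6.49 and 4.67 to 5.05, a difference of 3.69 ± 0.16 from the nearer flank. Mogat2, which encodes a monoacylglycerol acyltransferase of triglyceride synthesis, stood at 11.65 to 11.75 against 7.99 to 8.32 and 7.23 to 8.71. These groups were separated by almost 3 log2 units at their closest arrays (gap 2.94).

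Structural and surface genes were also in this group. Tuba8, an alpha-tubulin gene, was higher by 3.38 ± 0.21 and 3.03 ± 0.21, and Smtn, which encodes the actin-binding protein smoothelin, by 2.48 ± 0.23 and 3.11 ± 0.23. Tshr, the thyrotropin receptor gene, read 8.09, 8.28 and 8.16 in Mac1+ cells and no more than 5.52 on any other array. Vcam1, the adhesion molecule that binds the integrin VLA-4, was bright. It read 13.01, 12.89 and 13.01 in Mac1+ cells, 10.57, 10.72 and 10.43 in Mac1lo cells and 8.17, 8.97 and 8.75 in neutrophils, so the flanks were 5.26-fold and 20.3-fold lower (adjusted p = 0.000102 and 3.33e-07). Both other probe sets of Vcam1 were peaks as well. The 15 called peak genes with the largest nearer difference also included Fcnb and Junos, described further on, and Adhfe1, Enpp5, Tmem53, Cnmd, Mreg and Cxadr, with nearer differences from 2.20 to 2.46. Mreg was called with an adjusted p of 0.0259 and lost the call without any one c-kit+ array (adjusted p from 0.0692 to 0.0987), and Cxadr lost it when the probe sets of a gene were averaged (adjusted p = 0.135).

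**Figure D2:**
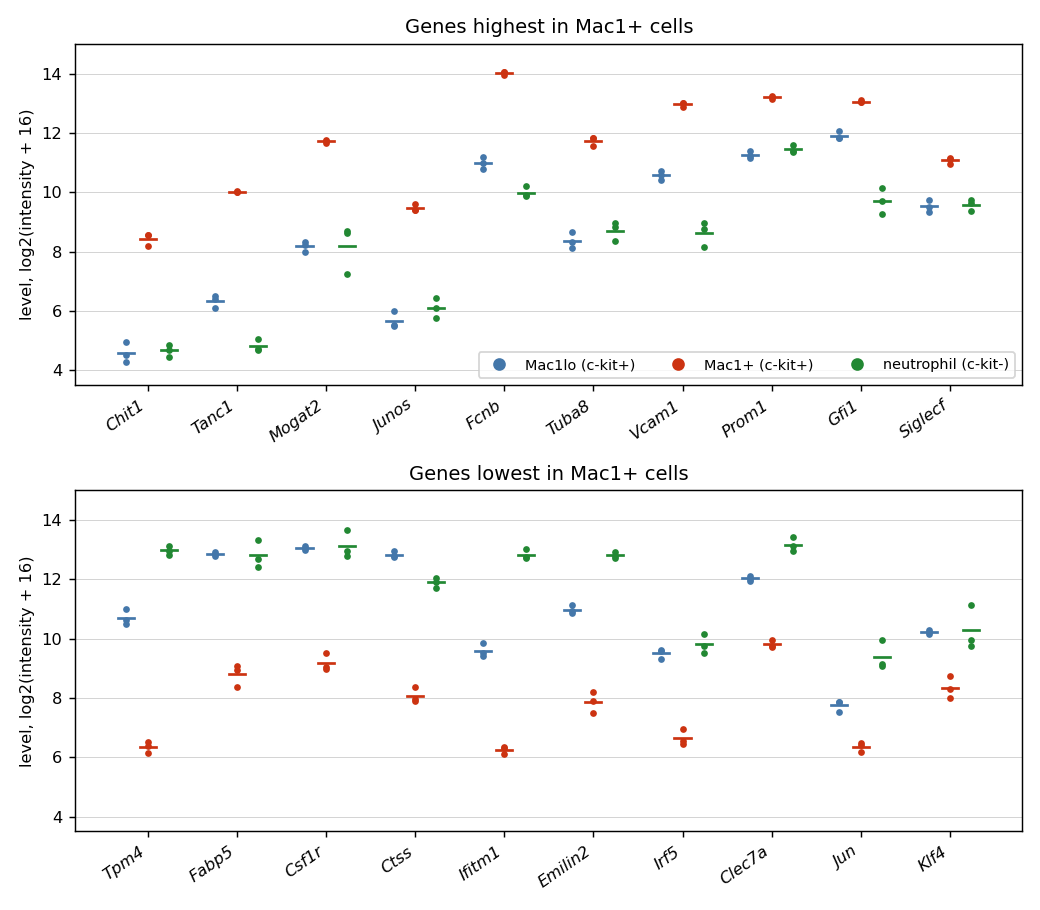
Level (y axis, log2(intensity + 16)) of 10 genes that were highest (upper panel) and 10 that were lowest (lower panel) in Mac1+ cells, with 1 point per array and a line at the mean of 3 arrays. In each gene the red Mac1+ points lie outside the range of the blue Mac1lo and green neutrophil points; Chit1 and Junos are near 4 to 6 in both flanks.

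Of 16 secondary granule genes 2 were peak genes (12.5%, beside 6.76% of all genes), Fcnb and Chil3, and Fcnb was called. Against Mac1lo cells 14 of the 16 were called higher (6.31% of all genes were). Against neutrophils 1 was called higher and 5 lower (28.4% and 19.7% of all genes). Fcnb encodes ficolin B, a lectin of the complement system found in myeloid cells. It read 14.04, 13.95 and 14.07 in Mac1+ cells, 11.19, 10.98 and 10.78 in Mac1lo cells and 10.21, 9.86 and 9.90 in neutrophils, so that neutrophils were the lowest of the 3. Its difference was 3.03 ± 0.16 (8.18-fold, adjusted p = 6.78e-06) and 4.02 ± 0.16 (16.3-fold, adjusted p = 1.44e-07). Chil3, a chitinase-like protein gene, was 1.99 above Mac1lo cells and 0.22 above neutrophils. Of 10 genes in the primary granule list 3 were peak genes (30.0%, beside 6.76% of all genes), namely Serpinb1a, Ms4a3 and Gstm1. Mpo, Elane, Prtn3 and Ctsg of that list were not among them. Their Mac1+ and Mac1lo arrays overlapped, with Elane at 13.89 to 14.12 and 13.82 to 13.99. Serpinb1a, an inhibitor of neutrophil serine proteases, was called, with 13.89, 13.82 and 13.86 in Mac1+ cells against 12.98 ± 0.03 (SD, n = 3) in Mac1lo cells and 13.19, 13.01 and 12.81 in neutrophils. For Ms4a3 and Gstm1 the difference was small from Mac1lo cells (0.39 and 0.35) and large from neutrophils (5.56 and 5.39). Of 9 tertiary granule genes none was a peak gene and Cfp, which encodes properdin, was a called dip gene, a call lost when probe sets were averaged (adjusted p = 0.266).

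The promoter of Fcnb is shown because its gene was the called peak of the secondary granule list and it holds matches to TTGCNNAA, a short form of the binding motif of C/EBP factors, which act in granule gene transcription. The sequence runs 5′ to 3′ on the strand of the gene, from 250 bases before the start to 50 after it, from RefSeq on GRCm38.p6 (chr2:28084829-28085128, minus strand), with the 2 matches in capitals. Both matches lie on the other strand, so the motif appears reversed and complemented.
Fcnb: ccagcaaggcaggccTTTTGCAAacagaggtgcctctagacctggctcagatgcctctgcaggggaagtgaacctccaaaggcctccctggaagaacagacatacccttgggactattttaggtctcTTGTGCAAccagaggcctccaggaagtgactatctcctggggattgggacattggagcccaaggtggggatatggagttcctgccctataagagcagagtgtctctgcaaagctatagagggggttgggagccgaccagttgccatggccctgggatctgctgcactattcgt
Among promoters of all measured genes 9.39% held this motif, and among those of peak genes 9.28%.

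Among 58 myeloid transcription factor genes dips were more numerous than peaks. There were 8 dip genes (13.8%, beside 3.99% of all genes), 5 of them called and given with the dip genes further on, and 2 peak genes (3.45%, beside 6.76% of all genes), both called. Gfi1, a repressor required for neutrophil development, read 13.03, 13.04 and 13.10 in Mac1+ cells, 11.83, 12.06 and 11.84 in Mac1lo cells and 9.27, 10.16 and 9.70 in neutrophils. It was 2.22-fold above Mac1lo cells (difference 1.15 ± 0.22, adjusted p = 0.00844) and 10.2-fold above neutrophils. Id2, which blocks the DNA binding of helix-loop-helix factors, stood at 12.43 to 12.56 in Mac1+ cells against 11.45 to 12.04 in neutrophils and 8.39 to 8.52 in Mac1lo cells. Its nearer difference of 0.72 ± 0.17 (adjusted p = 0.0062) was lost when its probe sets were averaged (adjusted p = 0.353). A dimmer Id2 probe set was lower in Mac1+ cells than in neutrophils, by -0.81.

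Of 32 stem and progenitor genes more were lower than higher in Mac1+ cells against Mac1lo cells. Called lower were 10 and called higher 3, beside 5.51% and 6.31% of all genes. The median level of the list was 8.93 to 9.09 on the Mac1lo arrays, 7.38 to 7.68 on the Mac1+ arrays and 6.50 to 6.95 on the neutrophil arrays. Cd34, a sialomucin gene of progenitors, went from 11.69 ± 0.03 in Mac1lo cells to 6.35 ± 0.19 in Mac1+ cells (SD, n = 3). Against this direction, the 3 members called higher were peak genes (9.38% of the list, beside 6.76% of all genes), and 1 member was a dip gene. Prom1, which encodes the membrane glycoprotein CD133, read 13.22, 13.13 and 13.25 in Mac1+ cells, above 11.15 to 11.38 in Mac1lo cells and 11.36 to 11.61 in neutrophils. The flanks were close to each other, and the differences were 1.95 ± 0.14 (adjusted p = 3.1e-05) and 1.75 ± 0.14 (adjusted p = 6.68e-06). Hlf, a transcription factor gene of stem cells, was higher by 1.66 ± 0.36 and 2.41 ± 0.36, and Bcl11a, a zinc finger factor gene, by 0.95 ± 0.25 and 2.80 ± 0.25. Leaving out any one c-kit+ array left Prom1 as the 1 called peak gene in this list, with an adjusted p from 0.0526 to 0.0694 for Hlf and from 0.0814 to 0.159 for Bcl11a. Siglecf, a sialic acid-binding receptor best known from eosinophils, was the only peak gene of 15 eosinophil, basophil and mast cell markers. That share of 6.67% was close to the 6.76% of all genes. Siglecf read 10.96, 11.11 and 11.15 against 9.33 to 9.73 and 9.37 to 9.74. Hvcn1, the voltage-gated proton channel that balances charge for the NADPH oxidase, was the called peak gene among 8 oxidase genes, by 1.34 ± 0.14 and 0.99 ± 0.14. It was the only peak gene of that list (12.5%, beside 6.76% of all genes). Against Mac1lo cells alone 6 of the 8 were called higher (6.31% of all genes were).

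Mitosis genes formed the largest block of peak genes among the 37 lists examined. Of 72 measured, 64 were peak genes (6.76% of all genes were), none was a dip gene and 21 were called (1.57% of all genes). The 64 ranged from 0.26 to 1.87 above Mac1lo cells (median 0.70) and from 0.51 to 5.29 above neutrophils (median 4.09). The summed intensity of the list was 163956 to 173910 on the Mac1lo arrays, 256409 to 274103 on the Mac1+ arrays and 33219 to 39060 on the neutrophil arrays, so no Mac1+ array came near either flank. Ube2c, an E2 enzyme that works with the anaphase-promoting complex, read 12.32, 12.27 and 12.36 in Mac1+ cells, 10.59, 10.24 and 10.51 in Mac1lo cells and 7.15, 8.69 and 8.38 in neutrophils. It was 3.66-fold above Mac1lo cells (difference 1.87 ± 0.35, adjusted p = 0.00747). Aspm, a protein of the spindle pole, was 1.42 ± 0.27 above Mac1lo cells (adjusted p = 0.00858), the mitotic kinase gene Plk1 1.32 ± 0.19 (adjusted p = 0.00186) and the kinetochore motor gene Cenpe 1.32 ± 0.17 (adjusted p = 0.00118).

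The other called members covered several parts of the division machinery. They included the chromosomal passenger genes Incenp and Cdca8 (0.71 and 0.59 above Mac1lo cells), the centromeric histone gene Cenpa (0.81) and Ska1 of the kinetochore (1.18). The spindle genes Tpx2, Prc1, Kif2c, Kif4 and Kif23 (1.13, 1.07, 1.05, 0.98 and 0.81) and Cdc20, an activator of the anaphase-promoting complex (0.75), were called too. The 8 mitosis genes that were not peak genes were Cenph, Cenpm, Cenpn, Kif14, Kif15, Anln, Pttg1 and Psrc1. The number called against each flank was 51 without neutrophil array 1 and 11 to 14 without any one c-kit+ array.

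Genes of DNA replication, which takes place in S phase, showed this pattern in a smaller share than mitosis genes. Of 46 measured, 7 were peak genes (15.2%, beside 6.76% of all genes), none was a dip gene and none was called against each flank. Against Mac1lo cells 19 had a positive and 27 a negative difference, and 2 were called lower (5.51% of all genes were). Against neutrophils 45 of 46 were called higher (28.4% of all genes were). Lig1, which encodes a DNA ligase, was a peak gene by only 0.12 over Mac1lo cells (12.85, 12.77 and 12.93 against 12.75, 12.68 and 12.75). Pole2, a DNA polymerase epsilon subunit gene, stood 0.08 ± 0.13 and Mcm3, a subunit gene of the replicative helicase, -0.23 ± 0.17 from Mac1lo cells, and neither difference passed. The summed intensity of the replication list was 182562 to 199888 in Mac1+ and 192228 to 213484 in Mac1lo cells, which overlapped.

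Of 48 cyclins, Cdk genes and their regulators, 18 were peak genes (37.5%, beside 6.76% of all genes). Of them 7 were called (1.57% of all genes were). The called genes act mainly around entry into S phase or mitosis. Cdkn3, a phosphatase that acts on Cdk proteins, read 10.54, 10.53 and 10.31 in Mac1+ cells against 8.88, 8.50 and 8.49 in Mac1lo cells and 6.29 to 6.95 in neutrophils (1.83 ± 0.20 above Mac1lo cells, adjusted p = 0.000378). The Cdk-activating phosphatase genes Cdc25c and Cdc25a were 1.21 ± 0.25 and 0.94 ± 0.15 above Mac1lo cells, and Foxm1, a transcription factor of mitotic genes, 0.69 ± 0.16. Cdc25c lost the call without Mac1lo array 2 or 3 or Mac1+ array 2 or 3 (adjusted p from 0.0536 to 0.0613), and Foxm1 without any one c-kit+ array but Mac1+ array 2 (0.0583 to 0.0975). The other called members were the cyclin A2 gene Ccna2, and E2f8 and Tfdp1 of the E2F family. Ccnd1, the cyclin D1 gene, was the called dip gene, at 6.01, 5.68 and 5.94 in Mac1+ cells against 8.98 to 9.43 in Mac1lo cells and 6.79 to 6.90 in neutrophils. The count of called peak genes in this list was 14 without neutrophil array 1 and 2 or 3 without any one c-kit+ array.

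**Figure D3:**
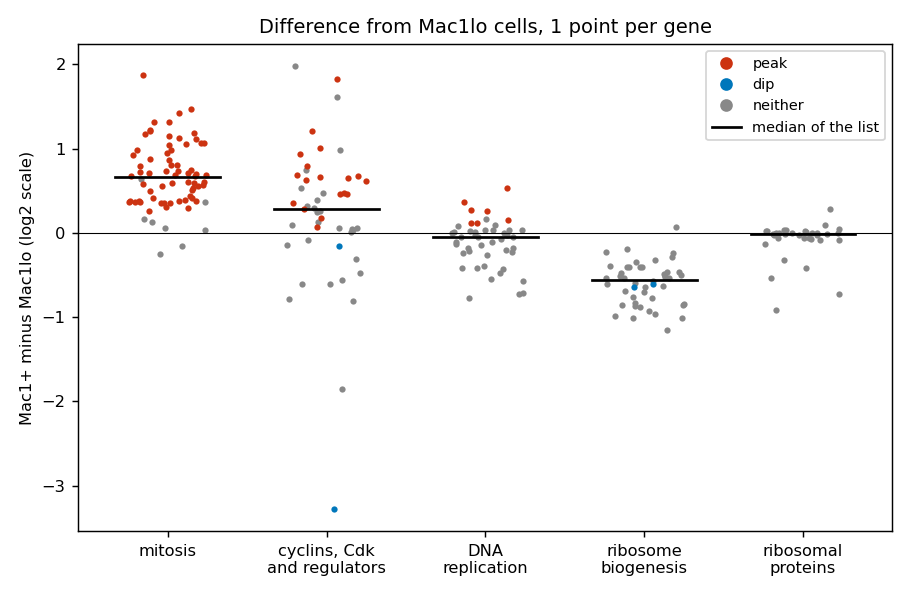
Difference between Mac1+ and Mac1lo cells (y axis, log2 scale) for each measured gene of 5 lists, with 1 point per gene, red for peak genes, blue for dip genes and a line at the median of the list. The mitosis points lie mostly above 0, those of DNA replication lie on both sides of it, and those of ribosome biogenesis lie mostly below it.

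The promoters of Ube2c and Aspm are shown because both genes were called peaks of the mitosis list and hold TTTGAA on one strand, a form of the cell cycle homology region, an element of genes expressed late in the cell cycle. Both run 5′ to 3′ on the strand of the gene, from RefSeq on GRCm38.p6, with the match in capitals (chr2:164769679-164769978, plus strand, for Ube2c and chr1:139454523-139454822, plus strand, for Aspm). The match, read as TTCAAA in Ube2c, begins at position -29 from the start of Ube2c and at position 6 after the start of Aspm.
Ube2c: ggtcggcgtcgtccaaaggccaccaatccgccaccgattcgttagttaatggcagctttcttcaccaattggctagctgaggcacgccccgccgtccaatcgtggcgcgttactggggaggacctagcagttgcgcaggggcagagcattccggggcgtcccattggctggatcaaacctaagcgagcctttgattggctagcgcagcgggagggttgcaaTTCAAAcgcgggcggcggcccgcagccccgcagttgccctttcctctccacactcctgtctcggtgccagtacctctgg
Aspm: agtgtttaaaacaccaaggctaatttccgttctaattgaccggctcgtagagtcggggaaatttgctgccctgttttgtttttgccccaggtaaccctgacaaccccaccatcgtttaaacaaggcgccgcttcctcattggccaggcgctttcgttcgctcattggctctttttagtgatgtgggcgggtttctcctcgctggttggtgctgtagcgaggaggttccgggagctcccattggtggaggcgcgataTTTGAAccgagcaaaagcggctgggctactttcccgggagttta
TTTGAA or TTCGAA, searched on both strands, was in 48 of 71 promoters of all measured mitosis genes (67.6%). It was in 41 of 62 of the mitosis peak genes (66.1%), which make up most of the list, so these shares could hardly differ. It was in 15.6% of 45 promoters of DNA replication genes and in 15.1% of 18109 promoters of all measured genes. CCAAT was in 73.2% of promoters of all mitosis genes, 55.6% of those of DNA replication genes and 37.4% of those of all measured genes, and TTTCCCGC, a form of the E2F motif, in 4.23%, 17.8% and 1.58%. Matches of different motifs were counted even where they overlapped. Among the peak genes outside the mitosis and cyclin lists 16.7% of promoters held TTTGAA or TTCGAA.

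Dip genes with the largest differences included genes of the cytoskeleton, lipid handling and immune receptors. Tpm4, a tropomyosin gene whose product stabilises actin filaments, read 6.37, 6.16 and 6.50 in Mac1+ cells, 10.71 ± 0.25 in Mac1lo cells (SD, n = 3) and 13.14, 12.96 and 12.83 in neutrophils. It fell to a dim level in Mac1+ cells, 20.6-fold below Mac1lo cells (difference -4.37 ± 0.18, adjusted p = 2.35e-06) and 99.4-fold below neutrophils (difference -6.63 ± 0.18). Fabp5, a fatty acid-binding protein gene, stood at 8.37 to 9.09 in Mac1+ cells and at 12.79 to 12.92 and 12.41 to 13.34 in the flanks, which overlapped. Ahnak, which encodes a very large scaffold protein, varied more between Mac1+ arrays (4.92, 4.20 and 5.84) but stayed below all others (8.79 to 9.76). The matrix glycoprotein gene Emilin2 had differences of -3.12 ± 0.19 and -4.95 ± 0.19, and Cyp4f18, a cytochrome P450 of leukotriene and fatty acid metabolism, stood at 5.97 to 6.16 against 8.94 to 9.19 and 12.29 to 12.87.

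Il10ra, the interleukin 10 receptor gene, read 4.51, 4.36 and 4.44 in Mac1+ cells and 7.78 to 8.12 in Mac1lo cells, but was uneven in neutrophils at 6.18, 8.22 and 8.80. Its difference from neutrophils was -3.30 ± 0.55 (adjusted p = 0.000889). Milr1, an inhibitory receptor gene, Rnase6, a ribonuclease gene, and Trps1, a GATA-type repressor gene, were called dip genes with differences from the nearer flank of -2.95, -2.93 and -3.04. Tmem268 and Dglucy, at -3.04 and -2.87, and Irf5, Csf1r, Ctss and Ifitm1, described further on, complete the 15. Anxa6, an annexin gene, dipped to 8.18, 8.66 and 8.78 against 10.89 to 10.93 and 9.52 to 10.39. Its next brightest probe set was not a dip, with differences of -0.52 from Mac1lo cells and 0.93 from neutrophils, whereas its dimmer ones were dips. S100a6 dipped to 6.61 to 7.13 against 7.75 to 8.11 and 13.23 to 13.79, a call lost without Mac1lo array 1 (adjusted p = 0.0505). The opposite was seen for S100a1, a called peak gene (1.08 ± 0.16 and 4.63 ± 0.16), which lost its call when probe sets with the suffix x or s, open to cross-hybridisation, were dropped (adjusted p = 0.313).

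Monocyte and macrophage markers held the largest share of dip genes of any of the 37 lists. Of 32 measured, 14 were dip genes (3.99% of all genes were), 12 were called (1.39% of all genes) and none was a peak gene. The summed intensity of the list was 79541 to 87326 in Mac1lo cells, 14985 to 16629 in Mac1+ cells and 68016 to 87957 in neutrophils. Between 20 and 22 of the 32 exceeded an intensity of 100 on the Mac1+ arrays, against 24 or 25 on the others. In sorted populations measured in bulk, fewer cells of a type and less RNA per cell cannot be told apart. Csf1r, which encodes the M-CSF receptor, read 8.97, 9.03 and 9.51 in Mac1+ cells, 13.05 ± 0.05 in Mac1lo cells (SD, n = 3) and 13.66, 12.96 and 12.80 in neutrophils. All 3 probe sets of Csf1r were dips, with differences of -3.88, -3.73 and -3.30 from Mac1lo cells and -3.97, -3.89 and -3.47 from neutrophils. Ctss, which encodes the lysosomal protease cathepsin S, read 7.95, 7.90 and 8.37 against 12.76 to 12.96 and 11.72 to 12.05 (-4.76 ± 0.17, adjusted p = 1.22e-06, and -3.83 ± 0.17, adjusted p = 2.43e-07).

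Other called members were Fn1, the fibronectin gene (-2.50 ± 0.45 and -3.63 ± 0.45), and Clec7a, the receptor for fungal beta-glucan (9.74, 9.72 and 9.95 against 11.95 to 12.12 and 12.96 to 13.43). Fn1 lost its call when probe sets were averaged (adjusted p = 0.107). Klf4, a transcription factor gene of monocytes, differed by -1.89 ± 0.35 from Mac1lo cells, and its call was lost without Mac1+ array 1 (adjusted p = 0.0867) or without neutrophil array 1 (adjusted p = 0.0592). Clec4a3, Cd68, Ccl6, Mpeg1, Cd14, Tgfbi and Adgre1 were the others. In several of these the neutrophil level was above that of Mac1lo cells: Ccl6, a chemokine gene, read 13.11 to 13.26 in neutrophils, 8.97 to 9.24 in Mac1lo cells and 7.67 to 7.93 in Mac1+ cells.

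A second set of markers was lower than in Mac1lo cells in both Mac1+ cells and neutrophils. These were 8 genes called lower than in Mac1lo cells but not called against each flank, Cx3cr1, Ly86, F13a1, Irf8, Ms4a6c, Ms4a6d, Pld4 and Ccl9. Cx3cr1 was just inside the rule as a dip gene. F13a1 and Ccl9 were still at 9.71 to 10.71 and 9.57 to 9.68 in neutrophils. Irf8 read 13.63 to 13.72 in Mac1lo cells, 8.81, 9.14 and 10.05 in Mac1+ cells and 8.60, 9.32 and 8.35 in neutrophils. Ms4a6c, a membrane protein gene of monocytes, read 12.46 to 12.62, 8.37 to 8.68 and 7.70 to 8.63. Complement genes of macrophages were dim, C1qa at 4.35 to 5.04 in Mac1lo cells, 4.90 to 5.85 in Mac1+ cells and 5.63 to 6.71 in neutrophils. C1qb, however, read 9.39 on neutrophil array 1 against 7.70 and 6.95 on the others. Without that array 12 members of the list were called, Klf4 not among them, and the count was 11 to 13 when any one array was left out.

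**Figure D4:**
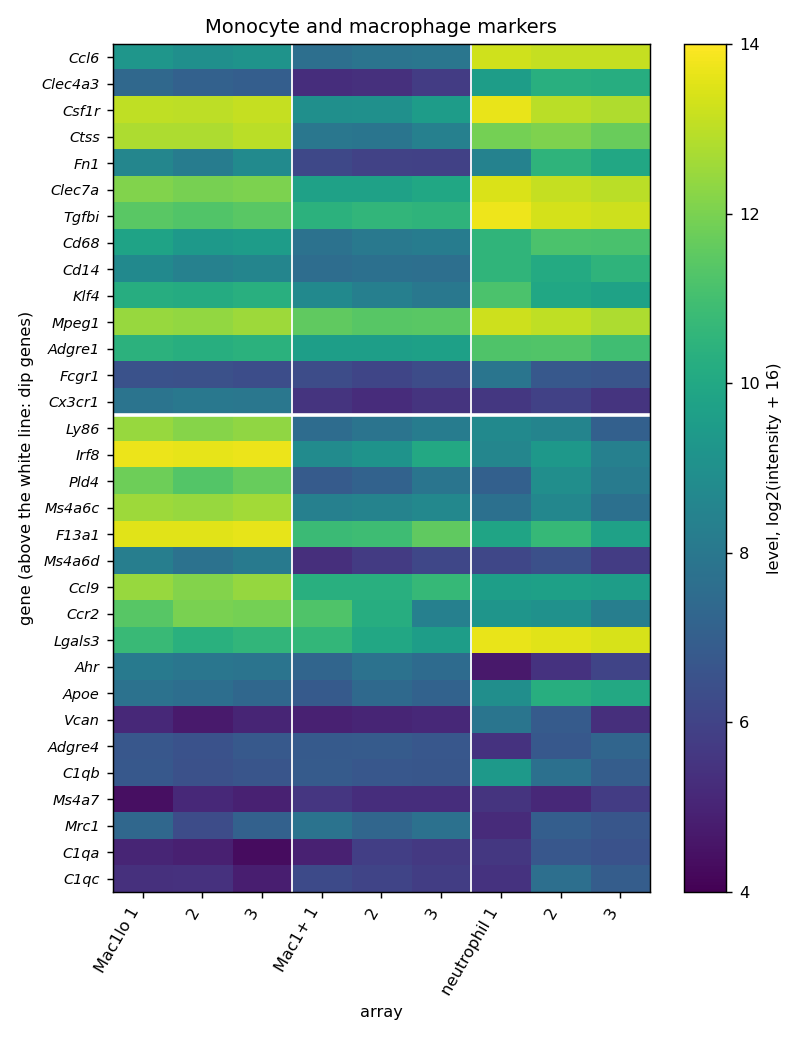
Level (colour, log2(intensity + 16)) of 32 monocyte and macrophage markers (rows) on the 9 arrays (columns). The 14 dip genes above the white line are lower in the 3 Mac1+ columns than in all others, whereas Irf8, Ly86, Pld4 and Ms4a6c below the line are dark in both Mac1+ and neutrophil columns.

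Dips were also frequent among interferon response genes. Of 47 measured, 13 were dip genes (27.7%, beside 3.99% of all genes) and 11 were called (1.39% of all genes). Against neutrophils 4 of the 47 were called higher and 37 lower (28.4% and 19.7% of all genes). The median difference of the list was -0.17 from Mac1lo cells and -1.72 from neutrophils, so most members were high in neutrophils and differed little between the c-kit+ populations. Ifit2 was a called peak gene. Ifitm1, an interferon-induced transmembrane protein gene, read 6.30, 6.34 and 6.12 in Mac1+ cells, 9.50, 9.41 and 9.84 in Mac1lo cells and 13.01, 12.73 and 12.76 in neutrophils (-3.33 ± 0.17, adjusted p = 4.4e-06, and -6.58 ± 0.17, adjusted p = 4.01e-08). The related gene Ifitm3 had smaller differences of -1.24 ± 0.24 and -3.08 ± 0.24. Trim30a, a ubiquitin ligase-like regulator of innate signalling, read 10.32, 10.30 and 10.23 against 11.57 to 11.71 and 12.09 to 12.77. Usp18, which restrains interferon receptor signalling, stood at 6.03 to 6.27 against 6.96 to 7.44 and 11.22 to 11.38. The remaining called dip genes were Ifi27l2a, Irf9, Mx1, Xaf1, Gbp2, Trim25 and Parp14.

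Ifit2 ran the other way, at 10.25, 10.22 and 10.34 in Mac1+ cells against 9.31 to 9.47 and 8.94 to 9.63 (0.89 ± 0.19, adjusted p = 0.0138, and 1.03 ± 0.19). The call depended on single arrays and was lost when Mac1lo array 1 (adjusted p = 0.0613), Mac1lo array 2 (0.0612) or Mac1+ array 3 (0.0582) was dropped. The list as a whole was not uniformly low: against Mac1lo cells 9 members were called higher and 15 lower (6.31% and 5.51% of all genes). The number of called dip genes was 6 to 8 without any one c-kit+ array. Of 19 MHC genes 3 were dip genes (15.8%, beside 3.99% of all genes). Nlrc5, the activator of MHC class I genes, was the called one (-1.48 ± 0.36, adjusted p = 0.0298), and the call was lost without any one c-kit+ array (0.0524 to 0.113).

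Promoters of Trim30a and Ifitm3 are shown because both were called interferon dip genes with a match, on either strand, to a short form of the interferon-stimulated response element (GAAA, any 2 bases, GAAA). They are from RefSeq on GRCm38.p6, 5′ to 3′ on the strand of the gene, with matches in capitals (chr7:104465144-104465443, minus strand, for Trim30a and chr7:141010695-141010994, minus strand, for Ifitm3). The match in Trim30a, which lies on the other strand, begins at position -36 and the first of 2 in Ifitm3 at position 2.
Trim30a: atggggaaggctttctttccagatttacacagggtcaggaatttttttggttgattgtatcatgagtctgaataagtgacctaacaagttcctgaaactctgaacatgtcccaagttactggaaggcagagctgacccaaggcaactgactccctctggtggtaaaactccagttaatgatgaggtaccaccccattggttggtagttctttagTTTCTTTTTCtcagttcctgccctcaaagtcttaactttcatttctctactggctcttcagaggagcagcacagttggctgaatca
Ifitm3: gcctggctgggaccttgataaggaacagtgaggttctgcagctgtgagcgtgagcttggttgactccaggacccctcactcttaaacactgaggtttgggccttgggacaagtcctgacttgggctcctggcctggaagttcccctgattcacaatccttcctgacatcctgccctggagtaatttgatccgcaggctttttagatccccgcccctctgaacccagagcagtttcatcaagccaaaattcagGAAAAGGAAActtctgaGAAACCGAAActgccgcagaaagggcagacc
The motif was in 6 of 11 promoters of interferon dip genes (54.5%) and in 20 of 42 promoters of all measured interferon genes (47.6%), so dip genes of the list were close to the list itself. Of all measured genes 3.03% of promoters held it, of dip genes 5.23% and of monocyte dip genes 16.7% (2 of 12). For all measured monocyte and macrophage markers the share was 6.25% (2 of 32 promoters).

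Of 38 immediate early and stress genes 5 were dip genes (13.2%, beside 3.99% of all genes), 3 of them called, and none was a peak gene. Against Mac1lo cells 4 members were called higher and 4 lower (6.31% and 5.51% of all genes). Against neutrophils 7 were called higher and 22 lower (28.4% and 19.7% of all genes). The called dip genes Jun, Fosl2 and Fos encode subunits of the transcription factor AP-1, whereas Junb, Fosb and Atf3 of the same list were not dip genes. Jun read 6.41, 6.48 and 6.18 in Mac1+ cells, 7.87, 7.86 and 7.53 in Mac1lo cells and 9.94, 9.15 and 9.08 in neutrophils (-1.40 ± 0.24, adjusted p = 0.00527, and -3.04 ± 0.24). Fosl2 was lower by -1.80 ± 0.15 and -3.66 ± 0.15, but a dimmer probe set of Fosl2 was not a dip, with differences of -0.14 and -1.64. Fos was lower by -1.46 ± 0.36 and -2.59 ± 0.36, with its call lost without any one c-kit+ array (adjusted p from 0.0766 to 0.105). Jund and Egr1 were dip genes without being called. The transcript Junos, named for the opposite strand of Jun and next to it in the gene order of chromosome 4, ran the other way. It read 9.60, 9.41 and 9.41 in Mac1+ cells, 5.53, 5.50 and 5.98 in Mac1lo cells and 5.76, 6.11 and 6.43 in neutrophils (3.80 ± 0.21, adjusted p = 7.87e-06, and 3.37 ± 0.21, adjusted p = 1.39e-06). Both probe sets of Jun were dips. Irf5, an interferon regulatory factor gene of myeloid cells, was at 6.45, 6.54 and 6.96 against 9.32 to 9.60 and 9.53 to 10.17 (-2.85 ± 0.21 and -3.17 ± 0.21).

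Of 42 lysosomal protein genes 14 were dip genes (33.3%, beside 3.99% of all genes), 7 of them called. There were 5 peak genes (11.9%, beside 6.76%), none of them called. Besides Ctss and Cd68, which are also among the monocyte markers, the called genes were the cathepsin genes Ctsh and Ctsl, the sphingolipid activator genes Gm2a and Psap, and Mitf, a transcription factor of lysosomal genes. Ctsl lost its call without Mac1lo array 1 or 3 or Mac1+ array 1 or 2 (adjusted p from 0.0606 to 0.0687). Ctsh read 11.37, 11.22 and 11.09 in Mac1+ cells against 12.30 to 12.36 and 12.14 to 12.48, and the flanks overlapped (-1.10 ± 0.15, adjusted p = 0.00145, and -1.13 ± 0.15). Of 62 chemotaxis and surface receptor genes 11 were dip genes (17.7%, beside 3.99% of all genes), 7 of them called, and 6 were peak genes (9.68%, beside 6.76%), 2 of them called. Against Mac1lo cells alone more members were called higher (22) than lower (9), beside 6.31% and 5.51% of all genes. Against neutrophils 7 were called higher and 39 lower (28.4% and 19.7% of all genes). Itgb7, an integrin beta chain gene, was at 7.48, 6.88 and 6.96 against 9.66 to 9.91 and 10.09 to 11.24. The receptor genes Cd300lb and Clec4d were lower by -1.60 ± 0.19 and -0.97 ± 0.19 than in Mac1lo cells and by -4.51 ± 0.19 and -5.64 ± 0.19 than in neutrophils. Tlr2, a receptor for bacterial lipoproteins, read 7.73 to 8.01 against 8.80 to 8.94 and 12.23 to 12.29. Fcgr2b and Trem3 were the called peak genes of this list, and no c-kit+ array could be left out without losing at least 1 of the 2 calls.

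Several large lists held few or no peak or dip genes. Of 35 ribosomal protein genes and 23 tricarboxylic acid cycle genes none was either. Of 46 ribosome biogenesis genes none was a peak gene and 2 were dip genes (4.35%, beside 3.99% of all genes). Called lower than in Mac1lo cells were 10 (5.51% of all genes) and called higher than in neutrophils 43 (28.4%). Of 61 oxidative phosphorylation genes 5 were peak genes and of 69 genes of the endoplasmic reticulum 6 were, shares close to the 6.76% of all genes, with no call. Among small lists of cell markers, none of 15 B cell markers was a peak or dip gene. Peak genes were 1 of 15 T and NK cell markers (Nkg7, 6.67%) and 2 of 13 erythroid markers (15.4%), beside 6.76% of all genes. Dip genes were 1 of 12 megakaryocyte markers (8.33%) and 1 of 14 dendritic cell markers (7.14%), beside 3.99% of all genes.

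**Figure D5:**
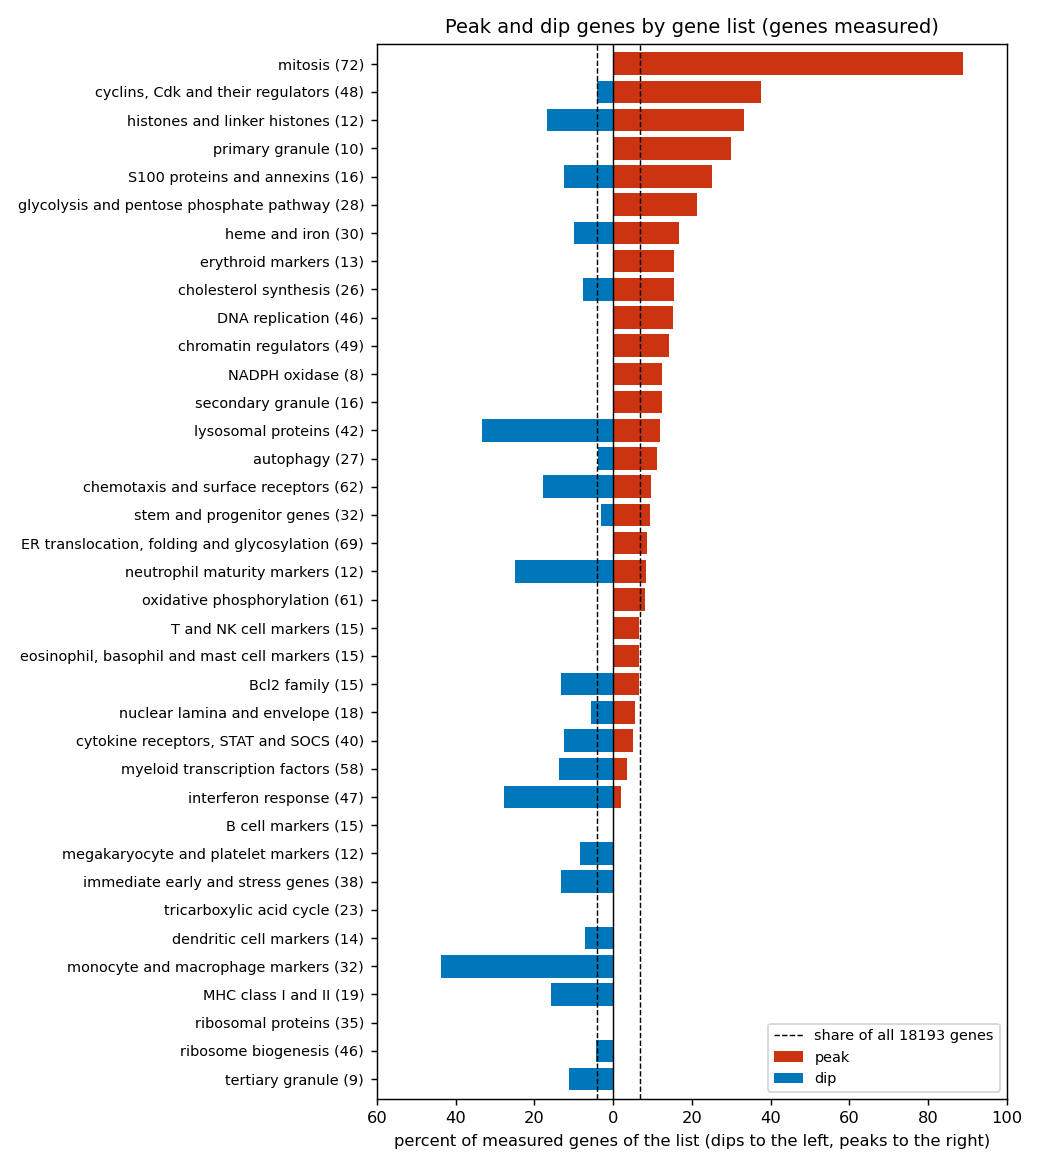
Percent of the measured genes of each of 37 lists that were peak genes (red, to the right) or dip genes (blue, to the left), with the number measured in brackets and dashed lines at the shares of all genes, 6.76% and 3.99%. Mitosis stands out to the right, and monocyte markers, lysosomal proteins and interferon response genes extend farthest to the left.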

How the data were processed

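RNA of 9 samples was amplified in 2 cycles, labelled with biotin and hybridised to 1-colour arrays, per the labels' protocols. The authors deposited linear intensity values of 45101 probe sets in 1 table. Their summary method, background correction and scaling are not given in the sources used here. Precision is limited by the number of arrays. Of the probe sets, 34945 name 1 gene and were used, 932 name several, 9160 name none and 64 are controls. For each gene the probe set with the highest mean was kept. Values were used as log2(intensity + 16), negative values set to 0 first, and tested in 1 fit of 3 groups with limma (version 3.58.1, R version 4.3.3), with Benjamini-Hochberg adjustment over 18193 genes and a threshold of 0.05. The procedure was tested on simulated data.

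Named genes are Kit and Itgam, the 15 called peak and 15 called dip genes with the largest difference to the nearer flank (brightest group above the median gene), up to 4 called peak and 4 called dip genes per list or else the 2 with the smallest p, and the 2 genes on either side of the rule. Other list members are named to complete a count. Peak and dip genes, the 37 lists and the tests were chosen with earlier results of these data known. Promoters came from RefSeq (GRCm38.p6). They covered 14452 of the 18193 genes. Alternatives tried were offsets of 1 and 64, quantile normalization, centred arrays, a replicate block, leaving out dim genes, averaging probe sets, leaving out probe sets with suffix x or s, a trended and robust prior, and leaving out each array.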

Additional observations from a re-analysis of the deposited data

How the results depend on the processing

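The 1230 peak genes numbered 971 to 1428 and the 725 dip genes 547 to 821 under the 9 alternatives that kept every array. They numbered 1301 to 1701 and 803 to 1167 when any one array was left out, which for a given probe set can only loosen the rule. The 285 genes called higher than each flank numbered 188 with an offset of 1, 476 with an offset of 64, and 144 to 713 when any one array was left out. Genes called lower than each flank numbered 169 to 466 without any one array, and those lower than the mean of the flanks 1188 to 2645. Whether replicate numbers pair the arrays is not known. Deviations of same-numbered arrays from their group means correlated between -0.31 and 0.13. With 3 arrays per group such correlations cannot exclude a shared batch. With the replicate number as a block, 193 genes were called higher and 200 lower than each flank. Of 76 named called genes 52 were called under every one of the 18 settings that measured them, and 8 were not called with the block. Of single values, the nearer difference of Utp14a was 0.00 with averaged probe sets and the contrast of Igll1 was -0.19 without x and s probe sets. The causes were not tested. Without dim genes, fewer genes were tested.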

Other observations

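Probe sets without a gene name were outside the comparisons. Of 9160, 162 (1.77%) had all 3 Mac1+ arrays above every other array and 285 (3.11%) had all 3 below, so dips outnumbered peaks there. Among named genes peaks outnumbered dips (6.76% and 3.99%). Named genes were counted on their brightest probe set, and unnamed probe sets singly at any level. The shares are therefore not like for like.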
